A study of Mus musculus with 8 samples.

Results

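The cells described here are the mouse embryonic stem (mES) cells with the highest share of transcripts for the start of DNA replication, in untreated cultures and in cultures given CX-5461, an inhibitor of RNA polymerase I. They were chosen by a score, the summed UMIs of Mcm2, Mcm3, Mcm5, Mcm6, Pcna, Cdc6, Ccne1, Ccne2 and Slbp over the total UMIs of the cell, where a UMI (unique molecular identifier) stands for 1 captured RNA molecule. Kept cells had at least 5000 UMIs, at most 0.1 of them on mitochondrial genes and less than 0.1% on the collagen genes Col1a1, Col1a2 and Col3a1, which mark feeder fibroblasts. The 25% of kept cells with the highest score in each table are called replication-high cells. They numbered 628 of 2513 kept cells and 3838 barcodes in the control table, and 1007 of 4029 kept cells and 4922 barcodes in the CX-5461 table, together 1635 of 6542 kept cells. They were compared with the 25% of cells with the lowest score in the same table, called replication-low cells.

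Both groups were ICM-derived ES cells grown for 2 days on gelatin with mouse embryonic fibroblast feeders in LIF/2i medium, labelled untreated or CX-5461 treated, and profiled with the 10x Genomics 3' droplet chemistry. The dose and duration of CX-5461 in this experiment are not given in the sources used here. The labels list 4 samples per condition, but the barcodes of a condition are pooled in 1 table that does not say from which sample each came, and each condition therefore counts as 1 library. There is thus no replicate check, no p-value was computed, and every interval below is a 95% interval for counting error only. A difference between the tables is a difference between 2 libraries, in which treatment and library cannot be told apart.

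In G1 the cell loads the MCM helicase onto replication origins, a step called licensing that needs Cdc6. Cyclin E, encoded by Ccne1 and Ccne2, then drives entry into S phase together with E2F transcription factors, which activate many replication genes. Pcna is the sliding clamp of the replicative polymerases. Slbp binds the stem loop of replication-dependent histone mRNAs, whose levels are tied to DNA synthesis. mES cells have a short G1 phase and spend much of their cycle in S phase.

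E2F sites are the sequence feature through which many of these genes are known to be activated together, so the promoters of the chosen genes were searched for it. The letters TTTGGCGC, TTTCGCGC, TTTCCCGC and TTTGGCGG were sought on either strand in the 250 bases before RefSeq starts on GRCm38.p6, and some of these words overlap when read on opposite strands. RefSeq promoters were matched for 8 of the 9 genes of the score, and 3 of these 8 promoters (37.5%) held a match, against 643 of all 32851 promoters (1.96%). The stretches around the match nearest to the start are shown for these 3 genes and for Chaf1a and Uhrf1, which played no part in the choice of cells. They are printed 5' to 3' on the strand of the gene, with the matching letters in capitals.
Mcm5: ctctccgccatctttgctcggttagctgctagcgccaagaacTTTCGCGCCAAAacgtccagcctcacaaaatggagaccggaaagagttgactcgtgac
Mcm6: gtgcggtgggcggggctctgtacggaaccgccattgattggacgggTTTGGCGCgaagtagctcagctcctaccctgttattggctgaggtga
Cdc6: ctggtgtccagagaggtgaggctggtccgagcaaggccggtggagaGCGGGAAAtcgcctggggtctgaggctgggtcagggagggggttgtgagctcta
Chaf1a: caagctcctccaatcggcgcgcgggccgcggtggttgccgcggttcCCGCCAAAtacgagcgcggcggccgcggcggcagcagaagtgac
Uhrf1: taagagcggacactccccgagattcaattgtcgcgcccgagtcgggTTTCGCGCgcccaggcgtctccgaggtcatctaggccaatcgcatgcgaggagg
The Mcm5 stretch lies at chr8:75109314-75109413 on the plus strand and holds 2 overlapping matches, 1 on each strand. The Mcm6 stretch lies at chr1:128359706-128359798 on the minus strand, and the match shown, 1 of 3 in this promoter, begins 47 bases before the start. The Cdc6, Chaf1a and Uhrf1 stretches lie on plus strands, at chr11:98907967-98908066, chr17:56040326-56040415 and chr17:56304082-56304181. Among replication genes outside the score, a match was found in 13 of 69 promoters (18.8%), with 5 of 14 in the list for chromatin assembly and DNA methylation upkeep and 0 of 13 in the list for nucleotide supply. The letters TTTGAA of the cell cycle homology region (CHR), known from G2/M promoters, were found in 10 of 25 promoters of the G2/M list (40%), against 16.0% of all promoters. A match is a description of these letters and not a measured binding site.

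The score was spread as a single broad peak in both tables. The median cell had 0.0709% of its UMIs on the 9 genes without CX-5461 and 0.0693% with it. The pooled share was 0.0706% (0.0698 to 0.0714) for the control and 0.0704% (0.0697 to 0.0710) for the CX-5461 table, a log2 ratio of -0.005 (-0.026 to 0.016). Without feeder-like and 2C-like cells it was 0.0725% (0.0717 to 0.0733) for the control and 0.0708% (0.0701 to 0.0715) for the CX-5461 table. These intervals did not overlap. As a mean over kept cells, the share was 0.0735% for the control and 0.0708% for the CX-5461 table. The upper end differed more than the pooled share over all kept cells. The lowest score of control replication-high cells was reached by 19.8% of CX-5461 cells (Clopper-Pearson interval 18.5 to 21.02). In the control this was 24.99% by construction. With every cell thinned to 5000 UMIs, 6 or more UMIs of the 9 genes were drawn in 20.5% (18.9 to 22.1) of the control and 15.6% (14.5 to 16.7) of the CX-5461 table's cells. At equal depth the variance of that count over its mean was 1.30 in the control and 1.16 in the CX-5461 table, where counting alone gives 1. When the feeder-like and 2C-like cells defined further on were left out, these values were 1.23 and 1.14.

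**Figure D1:**
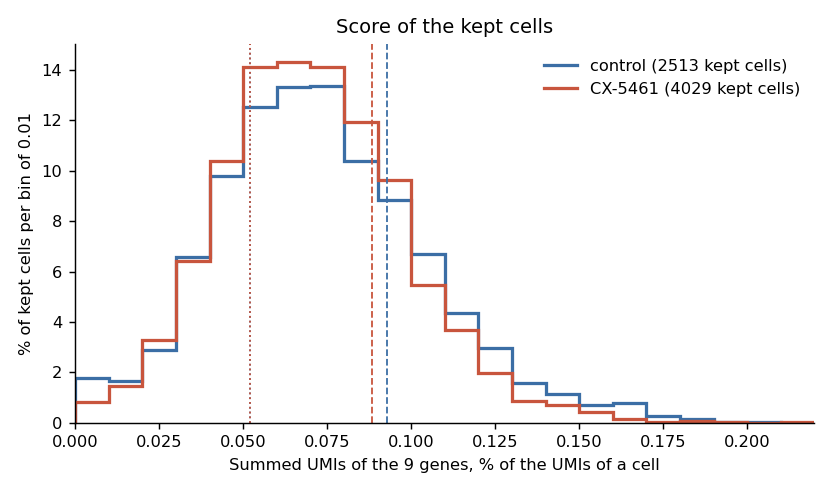
Distribution of the score over kept cells (x axis, percent of the UMIs of a cell on the 9 genes; y axis, percent of kept cells per bin) in the control and CX-5461 tables. Dashed lines mark the lowest score of replication-high cells and dotted lines, which nearly coincide, the highest score of replication-low cells. The CX-5461 cells fall off earlier at high scores, with an upper limit of 0.0883% against 0.0929%.

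The limits cut through a continuous range. In the control table the last cell inside had 0.0929% and the first outside 0.0928%, and in the CX-5461 table these were 0.0883% and 0.0882%. Within 10% of the upper limit lay 435 control cells (17.3%) and 816 CX-5461 cells (20.3%). A replication-high cell had a median of 16 UMIs of the 9 genes in the control and 15 in the CX-5461 table, and a replication-low cell had 6 in both. No UMI of the 9 genes was found in 20 control and 18 CX-5461 cells. With so few molecules per cell, part of the ranking is counting error, so the share of it that carried over to other molecules was measured.

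Each gene of the score was higher in replication-high cells, which the choice of cells fixes. Mcm5, a helicase subunit, stood at 184 and 64.5 CPM (UMIs of a gene per 1000000 UMIs of the pooled cells) in control replication-high and replication-low cells, and at 189 and 67.2 CPM in those of the CX-5461 table. Slbp stood at 209 and 49.96 CPM in the control and 159 and 55.7 CPM in the CX-5461 table. Cdc6 stood at 38.4 and 8.17 CPM against 24.6 and 7.33 CPM. Pcna had the smallest ratio of the 9 in both tables, with 206 and 82.0 CPM in the control and 141 and 70.9 CPM in the CX-5461 table. Ccne2 had under 10 CPM in all 4 sets of cells, at 7.21 and 1.63 CPM in the control and 6.32 and 2.11 CPM in the CX-5461 table, and was too low for the minimum of 200 UMIs over both sets. The 9 genes together differed between the sets by a log2 ratio of 1.65 in the control and 1.45 in the CX-5461 table.

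When the cells were chosen on a random 50% of their UMIs and measured on the remaining UMIs, the ratio of the 9 genes was far smaller, at 0.69 (0.62 to 0.75) on the log2 scale in the control and 0.32 (0.26 to 0.37) in the CX-5461 table. With feeder-like and 2C-like cells left out, the values were 0.56 (0.49 to 0.62) and 0.35 (0.29 to 0.40). The same order was seen between parts of the gene set. Cells chosen by the 4 Mcm genes had more of the other 5 genes by 0.61 (0.54 to 0.68) in the control and 0.30 (0.23 to 0.37) in the CX-5461 table, and cells chosen by those 5 genes had more of the 4 Mcm genes by 0.61 (0.54 to 0.67) and 0.25 (0.20 to 0.30). The intervals of the tables did not overlap in any of these 4 comparisons. The transcripts of the score thus varied together from cell to cell in both tables, and over the 9 genes less in the CX-5461 table. This gap was not shared evenly. On separate UMIs without feeder-like and 2C-like cells, the 4 Mcm genes had 0.49 (0.40 to 0.58) and 0.41 (0.34 to 0.48), with overlapping intervals. There the 5 other genes had 0.64 (0.54 to 0.74) and 0.24 (0.15 to 0.33). The choices by parts of the gene set were not repeated without those cells.

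**Figure D2:**
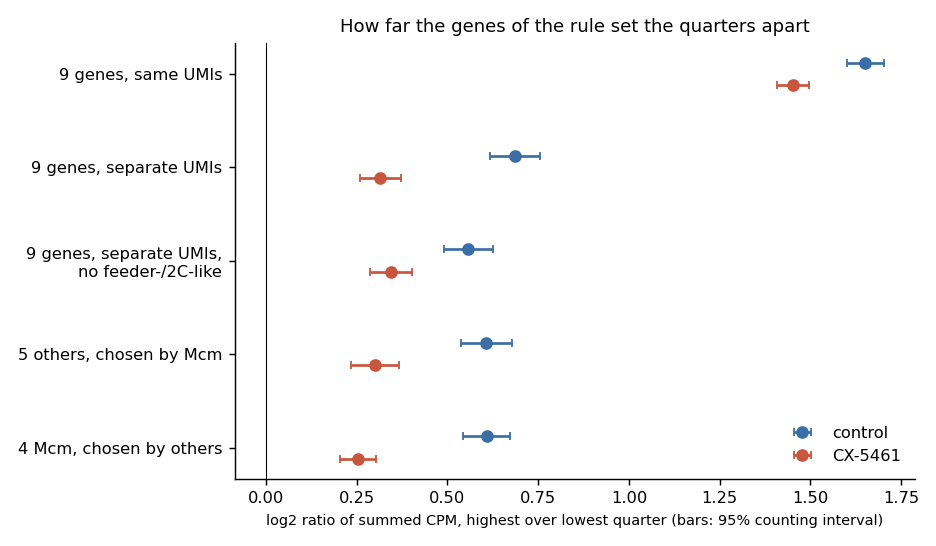
Log2 ratio of the summed CPM of score genes between replication-high and replication-low cells (x axis, with 95% counting intervals) for each way of choosing and measuring (rows). The top row shows the values fixed by the choice of cells, and the rows below it show molecules that were not used for the choice, where CX-5461 values lie between 0.25 and 0.35 and control values between 0.56 and 0.69.

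Some replication-low cells were not ordinary ES cells. Cells with at least 0.1% of UMIs on a fibroblast list without Vim, called feeder-like, numbered 62 among the 628 control replication-low cells and 0 among the 628 replication-high cells (a count of 0 allows up to 0.478%), and 32 and 15 in the CX-5461 table. The list's summed level was 4242 CPM in the 10% of control cells with the lowest score and between 123 and 192 CPM in the other bins of 10%, and among CX-5461 cells it was 655 CPM in the lowest bin and between 187 and 226 CPM elsewhere. In control replication-high cells Col6a1 and Col6a2 were at 0 UMIs and Acta2, a contractile actin, was seen in 30 cells. Cells with at least 5 UMIs of 2C genes, which mark a state like that of the 2-cell embryo, numbered 7 replication-low and 0 replication-high cells in the control, and 29 and 13 in the CX-5461 table. No UMI of the ES cell factor Pou5f1 was found in 37 replication-low and 1 replication-high control cells, and in 23 and 5 CX-5461 cells. The lists below are therefore also given without feeder-like and 2C-like cells, with the sets chosen again among the remaining cells. This exclusion was chosen after the values were seen. On the fibroblast list 8 of 8 control genes and 2 of 6 CX-5461 genes that reached the minimum were at least 1.5-fold lower in replication-high cells, and on the 2C list 1 of 1 and 7 of 7.

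Depth and RNA composition also differed between the sets. The median total was 13721 UMIs in control replication-high and 17305 in replication-low cells, and 13952 and 14046 in the CX-5461 table. The median mitochondrial share was 1.88% and 2.06% in the control sets and 3.99% and 4.07% in the CX-5461 sets. At 5000 UMIs per cell, a median of 1727 genes was detected in control replication-high and 1641 in replication-low cells, and 1920 and 1880 in the CX-5461 table (3124 and 3357, and 3560 and 3517, at full depth). Doublets were not called. Values within strata of depth stand beside the results on replication genes, H2A genes and the G2/M list.

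Across the other genes with at least 200 UMIs over both sets, 232 of 6116 (3.79%) were at least 1.5-fold higher in control replication-high cells and 237 (3.88%) at least 1.5-fold lower. With the TMM scaling factor the control counts were 140 and 279. Among CX-5461 cells 91 of 8389 genes (1.08%) were higher and 269 (3.21%) lower. Without feeder-like and 2C-like cells the control counts were 138 of 5911 (2.33%) higher and 39 (0.66%) lower, and the CX-5461 counts 79 of 8231 (0.96%) and 185 (2.25%). The median log2 ratio over all genes was 0.11 in the control and 0.06 in the CX-5461 table, which is the level against which the lists below are read. Ratios above 0 were found for 3997 of 6116 control and 5252 of 8389 CX-5461 genes. Without feeder-like and 2C-like cells these were 3908 of 5911 and 5232 of 8231. Counts of list genes above 0 are to be set beside these. Of 6005 genes that reached the minimum in both tables, 3 were at least 1.5-fold higher in both, namely Slc16a1, Pcna-ps2 and Zw10, and 32 were lower in both. Without feeder-like and 2C-like cells these counts were 2 and 0 of 5827. So small a count of shared higher genes is not read as a result.

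Replication factors outside the score were higher in replication-high cells of both tables, with larger ratios in the control table. Summed over 64 such genes, the level was 5503 CPM (5455 to 5551) in replication-high and 3727 CPM (3692 to 3763) in replication-low control cells, a log2 ratio of 0.56 (0.54 to 0.58). In the CX-5461 table it was 5525 CPM (5486 to 5563) and 4611 CPM (4577 to 4645), a log2 ratio of 0.26 (0.25 to 0.28). The replication-high sets thus had nearly the same CPM in both tables, and the replication-low set was lower in the control. Over all genes the median log2 ratio of CX-5461 over control replication-high cells was 0.27, and an equal CPM lies under that shift. Without feeder-like and 2C-like cells the replication-low level was 4097 CPM in the control and 4711 CPM in the CX-5461 table. Within 5 strata of depth the ratios were 0.52 and 0.26. With feeder-like and 2C-like cells left out, the ratios were 0.43 and 0.23, and with choice and measurement on separate UMIs 0.45 and 0.20.

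For origin licensing and firing, 5 of 18 genes that reached the minimum were at least 1.5-fold higher in control replication-high cells and 0 of 19 in those of the CX-5461 table, with medians of 0.43 and 0.26. Without feeder-like and 2C-like cells these were 4 of 18 and 0 of 19, with medians of 0.34 and 0.23. Cdc45, part of the active helicase, stood at 26.5 CPM in replication-high and 11.5 CPM in replication-low control cells and at 35.8 and 25.03 CPM in the CX-5461 table, ratios of 1.20 (0.89 to 1.52) and 0.52 (0.32 to 0.71). Mcm4 and Mcm7, the helicase subunits that were left out of the score, had ratios of 0.82 and 0.79 in the control and 0.58 and 0.35 in the CX-5461 table. Orc6, an origin recognition subunit, had 0.64 and 0.39. Gmnn, the inhibitor of licensing, had 0.43 and 0.30, and 0.26 in both tables without feeder-like and 2C-like cells. Ticrr, a firing factor, was the single licensing and firing gene with a ratio below 0 in the control table.

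Among DNA polymerases and their clamp loaders, 9 of 19 genes were at least 1.5-fold higher in control replication-high cells and 0 of 20 in those of the CX-5461 table, with medians of 0.52 and 0.16. The ratio was smaller in the CX-5461 table for 19 of 19 genes, against 3243 of 6005 genes outside the score. Without feeder-like and 2C-like cells it was smaller for 15 of 19, against 3132 of 5827. In that setting 5 of 19 control genes passed 1.5-fold and the medians were 0.41 and 0.15. Pole2, the accessory subunit of polymerase epsilon, stood out. The gene lies on chromosome 12 from 69201773 to 69228195 (mm10, minus strand). Its level was 22.4 CPM in replication-high and 8.94 CPM in replication-low control cells, and 22.6 and 20.5 CPM in the CX-5461 table, so that the difference of the log2 ratios was -1.19 (-1.59 to -0.78). Ung, which removes uracil from DNA, had ratios of 0.99 and 0.42. Rpa2, a subunit of the single-strand binding protein, had 0.70 and 0.38, and Rfc5, a clamp loader subunit, 0.41 and 0.08. Lig1, the ligase that joins Okazaki fragments, had 0.37 and 0.28.

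The genes of nucleotide supply followed the same order, with 3 of 11 at least 1.5-fold higher in the control and 0 of 11 in the CX-5461 table and medians of 0.55 and 0.24. After the exclusion of feeder-like and 2C-like cells 2 of 11 control genes passed and the medians were 0.42 and 0.23. Rrm2, the cell cycle regulated subunit of ribonucleotide reductase, stood at 223 and 106 CPM in the control and 145 and 116 CPM in the CX-5461 table, ratios of 1.08 (0.97 to 1.18) and 0.32 (0.23 to 0.41). Tyms, which makes thymidylate, had ratios of 0.72 and 0.19. Impdh2, of guanine nucleotide synthesis, had 0.56 and 0.09. Dut, which keeps dUTP low, had 0.41 and 0.30.

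Chromatin assembly and DNA methylation upkeep held 5 of 12 genes at least 1.5-fold higher in the control and 1 of 12 in the CX-5461 table, with medians of 0.54 and 0.37 and all 12 genes above 0 in both. After the exclusion of those cells the counts were 3 of 12 and 0 of 12 and the medians 0.37 and 0.33. Hat1, the acetyltransferase of newly made histone H4, had ratios of 0.90 (0.81 to 0.99) and 0.18 (0.13 to 0.24). Nasp, a histone chaperone, had 0.72 and 0.43, and the assembly factor gene Chaf1a 0.85 and 0.35. Hells, a remodeller needed for DNA methylation, went the other way, with 0.40 in the control and 0.51 in the CX-5461 table, and Atad2 was the gene past 1.5-fold in the CX-5461 table, at 0.61, and stood at 0.57 after the exclusion. The letters of an E2F site did not set the size of the ratio apart by much. Over 239 genes with a match and values in both tables the median ratio was 0.20 in the control and 0.15 in the CX-5461 table, against 0.11 and 0.08 over 4224 genes without one.

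**Figure D3:**
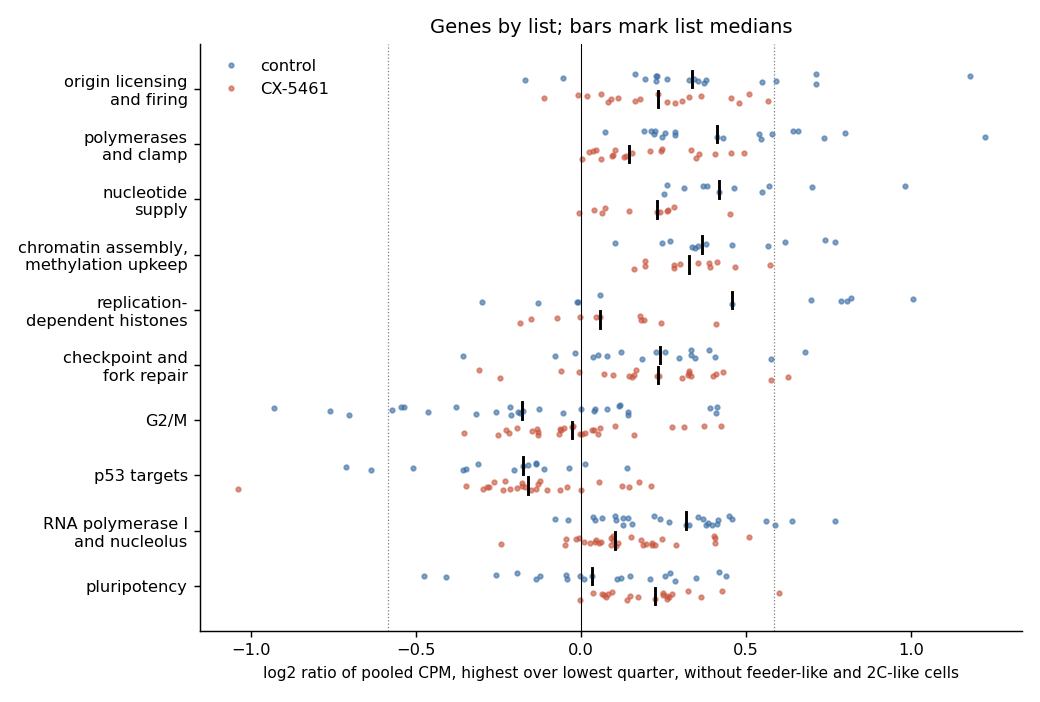
Log2 ratio of pooled CPM between replication-high and replication-low cells (x axis) for single genes of 10 lists (rows), without feeder-like and 2C-like cells. Each point is a gene that reached 200 UMIs, black bars are list medians and dotted lines mark 1.5-fold. The medians of the top 4 lists, those of replication, lie right of 0 in both tables, with the control values of Pole2 and Cdc45 beyond 1, while 0 genes of these 4 lists pass 1.5-fold in the CX-5461 table.

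Replication-dependent histone transcripts of the H2A class differed with the score far more in the control than in the CX-5461 table. These mRNAs mostly end in a stem loop without a poly(A) tail, and 3' libraries primed on poly(A) capture only part of them. Hist1h2ab stood at 993 CPM in replication-high and 525 CPM in replication-low control cells, and at 234 and 224 CPM in the CX-5461 table. Hist1h2ap stood at 603 and 328 CPM in the control and 64.1 and 60.6 CPM in the CX-5461 table. Hist1h2ae stood at 430 and 249 CPM and at 108 and 105 CPM. Hist1h2ac stood at 245 and 147 CPM and at 15.9 and 17.3 CPM. Thus all 4 were higher in control replication-high cells, while both CX-5461 sets were low and close to each other.

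Summed over these 4 H2A genes, the log2 ratio was 0.86 (0.83 to 0.89) in the control and 0.05 (0.00 to 0.10) in the CX-5461 table, 0.79 and 0.03 without feeder-like and 2C-like cells, and 0.73 and -0.02 within 5 strata of depth. With cells thinned to 5000 UMIs they were 0.56 (0.50 to 0.61) and -0.19 (-0.27 to -0.10), with cells chosen by the 4 Mcm genes 0.50 and -0.12, by the 5 other genes 0.87 and 0.15, and with the study's cell filter 0.88 and -0.07. The control ratio was thus above 0 in each of these settings, and the sign of the CX-5461 ratio varied. Among control cells without feeder-like and 2C-like cells, the sum went from 1219 CPM in the 10% of cells with the lowest score to 2564 CPM in the 10% with the highest, and among CX-5461 cells it was 465 CPM and 452 CPM, with 334 to 426 CPM in between. Of the 23 histone genes on the list, 12 reached the minimum in the control table, where 5 were at least 1.5-fold higher (Hist1h1b at 1.20 is the fifth) and 2 lower. Among CX-5461 cells 11 reached it, with 0 higher and 2 lower, and the list medians were 0.15 and 0.03 (0.46 and 0.06 without feeder-like and 2C-like cells). The 4 summed H2A genes are thus 4 of the 5 past 1.5-fold in the control, and their sum does not stand for the whole list. Above the median of all genes lay 6 of the 12 control genes. Without feeder-like and 2C-like cells 7 of 11 control genes lay above 0 and 4 below. The 2 lower genes were Hist1h2bc and Hist1h1c in both tables, and their ratios turned positive without feeder-like and 2C-like cells (0.46 and 0.42 in the control, 0.18 and 0.18 in the CX-5461 table). The H2A genes are near-identical copies of each other, and the deposited column of ambiguous UMIs held 130, 197 and 232 UMIs for Hist1h2ab, Hist1h2ae and Hist1h2ap in the control and 227, 422 and 702 in the CX-5461 table, so the split between copies is uncertain.

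**Figure D4:**
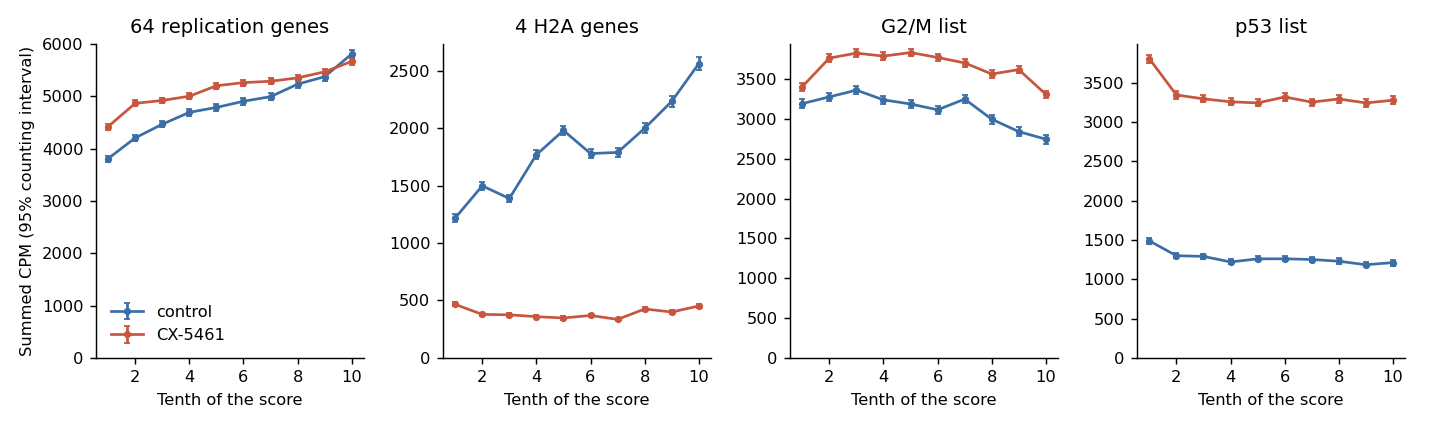
Summed CPM (y axes, from 0, with 95% counting intervals) in 10 bins of cells by score, from lowest to highest, without feeder-like and 2C-like cells, for 64 replication genes outside the score, 4 H2A genes, the G2/M list and the p53 list. The H2A sum rises with the score in the control table, from 1219 to 2564 CPM, and stays between 334 and 465 CPM in the CX-5461 table.

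The label of the cells, G1/S and S phase, was checked against genes of the next phase. Across the G2/M list the median ratio was -0.04 in the control and 0.00 in the CX-5461 table, and at least 1.5-fold lower were 2 of 28 genes in the control and 0 of 28 in the CX-5461 table. The median cell had 0.263% of its UMIs on the list among control replication-high and 0.3001% among replication-low cells, and 0.312% and 0.317% in the CX-5461 table, with interquartile ranges that overlapped widely (0.207 to 0.347% against 0.211 to 0.387% in the control table). The sum over the list had a log2 ratio of -0.07 in the control and -0.04 in the CX-5461 table, which turned to 0.06 and 0.11 with cells thinned to 5000 UMIs, to 0.05 and 0.01 within 5 strata of depth, and in the CX-5461 table to 0.00 as a mean over cells. It was further below 0 without feeder-like and 2C-like cells, at -0.21 (-0.23 to -0.19) in the control and -0.06 (-0.08 to -0.04) in the CX-5461 table, and with separate UMIs as well at -0.22 (-0.25 to -0.18) and -0.08 (-0.10 to -0.05). Over all kept cells the sign of the G2/M sum thus varied with the handling of depth. Without feeder-like and 2C-like cells the sum was below 0 in the settings given. Thinning and strata of depth were not run without those cells, so a dependence on depth among the remaining cells was not tested. The replication-high cells are named here by their score and not by a phase.

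Single G2/M genes did differ in the control table. Cenpf, a kinetochore protein of late G2 and mitosis, stood at 62.1 CPM in replication-high and 102 CPM in replication-low control cells and at 127 and 126 CPM in the CX-5461 table, and the difference of the ratios was 0.73 (0.56 to 0.91). Prc1, of the central spindle, had ratios of -0.62 and -0.02. Ube2c, which acts with the anaphase-promoting complex, had -0.54 and -0.20, and Cks2, a CDK subunit, -0.11 and -0.02. Birc5, of the chromosomal passenger complex, had 0.24 and 0.05. Without feeder-like and 2C-like cells the control median was -0.18 with 3 of 28 genes at least 1.5-fold lower (Cenpf -0.93, Prc1 -0.76, Ube2c -0.70), while the CX-5461 median was -0.03 with 0 of 28. The order of Top2a, the topoisomerase that rises through S phase and G2, differed between the tables, at -0.24 in the control and 0.20 in the CX-5461 table.

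Among E2F factors and genes of G1/S control, 10 of 13 in the control and 12 of 14 in the CX-5461 table had ratios above 0, 0 were at least 1.5-fold higher in either, and the medians were 0.22 and 0.28 (0.15 and 0.30 without feeder-like and 2C-like cells). Cdk4 had 0.03 and 0.01, Ccnd3, a D-type cyclin, 0.22 and 0.02, and Ccna2, cyclin A, 0.37 and 0.24. Ccnd2, at -3.24 and -2.51, was the gene lower by 1.5-fold in both tables. Without feeder-like and 2C-like cells it stood at 0.57 and -0.03. The control value there came from fewer UMIs than the minimum and is not read. Among replication checkpoint and fork repair genes the medians were 0.39 in the control and 0.25 in the CX-5461 table, but 0.24 and 0.23 without feeder-like and 2C-like cells. Brca1 and Bard1, partners in homologous recombination, passed 1.5-fold in the CX-5461 table, at 0.60 and 0.72, against 0.40 and 0.45 in the control. Without feeder-like and 2C-like cells Bard1 alone passed, at 0.63, and Brca1 stood at 0.58. The interval of the difference between tables included 0 for Brca1 (-0.21 to 0.61) and for Bard1 (-0.24 to 0.78). Tipin, which protects stalled forks, had 0.46 and 0.10, and the mismatch repair gene Msh6 had 0.38 in the control and 0.35 in the CX-5461 table.

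Targets of p53 were on balance lower in replication-high than in replication-low cells of both tables. Below 0 were 15 of 16 genes in the control and 21 of 26 in the CX-5461 table. The summed list had log2 ratios of -0.48 (-0.51 to -0.44) and -0.12 (-0.14 to -0.10), and -0.19 (-0.23 to -0.16) and -0.11 (-0.13 to -0.09) without feeder-like and 2C-like cells. In bins by score without those cells, the control sum was 1488 CPM in the lowest bin and 1185 to 1301 CPM elsewhere. In the CX-5461 table it was 3809 CPM in the lowest bin and 3246 to 3347 CPM elsewhere. The largest step in both tables thus lay between the lowest bin and the next, and the sum changed less across the rest. Cdkn1a, the CDK inhibitor p21, on chromosome 17 from 29090976 to 29100727, stood at 104 CPM in replication-high and 313 CPM in replication-low control cells and at 534 and 567 CPM in the CX-5461 table. With feeder-like and 2C-like cells left out, the levels were 103 and 169 CPM in the control and 535 and 535 CPM in the CX-5461 table, so the control ratio shrank from -1.59 to -0.71 and the CX-5461 ratio from -0.09 to -0.00. A UMI of Cdkn1a was found in 415 of 628 control and 983 of 1007 CX-5461 replication-high cells. Over the list, 6 of 16 genes were at least 1.5-fold lower in control replication-high cells and 1 of 26 in the CX-5461 table, the death receptor gene Fas at 9.41 and 20.3 CPM, with medians of -0.44 and -0.17. Without feeder-like and 2C-like cells 2 of 15 control genes stayed past 1.5-fold, Cdkn1a and Ddit4l, and the medians were -0.18 and -0.16. Ccng1 (-0.64 and -0.10) and Bax (-0.14 and -0.03) lay closer to 0 than Cdkn1a in the control.

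**Figure D5:**
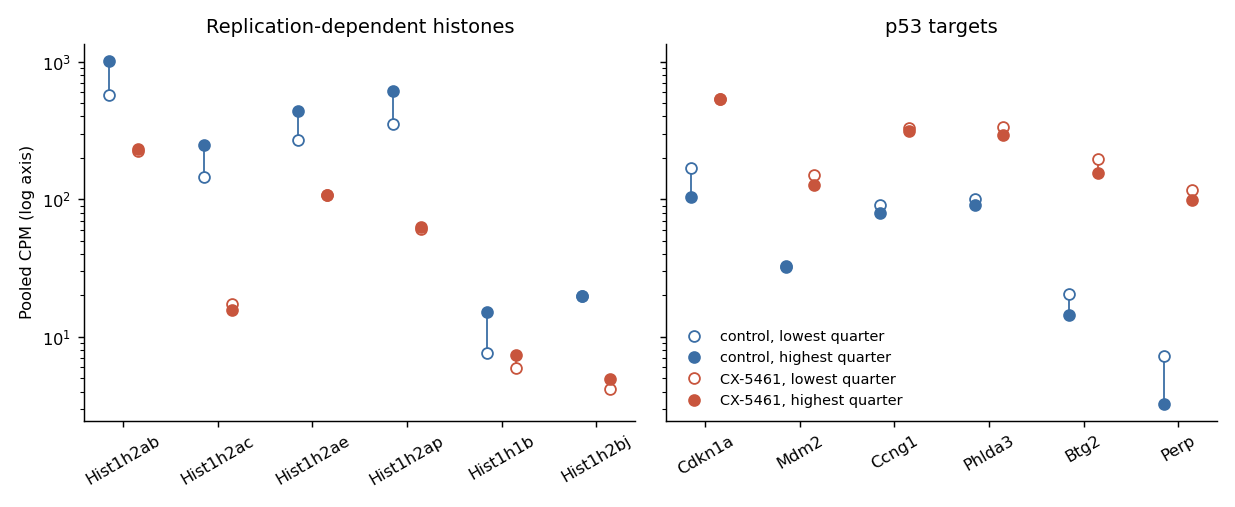
Pooled CPM (y axis, log scale) in replication-high (filled) and replication-low (open) cells of both tables, without feeder-like and 2C-like cells, for 6 histone and 6 p53 target genes. H2A genes are lower in the CX-5461 table and their filled and open points nearly coincide there, while p53 targets are higher in the CX-5461 table, with Cdkn1a at 535 CPM in both sets.

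Transcripts of RNA polymerase I and nucleolus genes followed replication in the control table, while most ribosomal protein genes did not. All 29 genes of the RNA polymerase I and nucleolus list that reached the minimum had ratios above 0 in the control table, 5 of them past 1.5-fold, with a median of 0.43. Among CX-5461 cells 26 of 30 were above 0, 0 passed 1.5-fold and the median was 0.13. Npm1, nucleophosmin, stood at 3625 and 2700 CPM in the control and 2411 and 2366 CPM in the CX-5461 table, ratios of 0.43 (0.40 to 0.45) and 0.03 (0.01 to 0.05). Ncl, nucleolin, had ratios of 0.59 and 0.21, and Nhp2, of the box H/ACA particles, 0.15 and 0.01. Ribosomal protein genes were slightly lower with the score, with medians of -0.11 and -0.05 over 77 genes. With feeder-like and 2C-like cells left out, 27 of 29 control and 25 of 30 CX-5461 genes of the nucleolus list lay above 0, 3 and 0 passed 1.5-fold and the medians were 0.32 and 0.10.

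Pluripotency genes had medians of 0.16 in the control and 0.24 in the CX-5461 table, with 16 of 21 and 20 of 21 genes above 0. Pou5f1 had 0.10 and 0.06 and Dppa5a 0.16 and 0.02. Zfp42, also called Rex1, had 0.03 in the control and 0.28 in the CX-5461 table. Without feeder-like and 2C-like cells 12 of 21 control genes and 20 of 21 CX-5461 genes lay above 0, with medians of 0.03 and 0.23. Above the median of all genes lay 10 of 21 and 18 of 21 in that setting. Fgf4, a growth factor of naive cells, was the gene past 1.5-fold in the CX-5461 table, at 0.62 against -0.30 in the control, a difference of 0.92 (0.54 to 1.31). Dppa4 was the gene past 1.5-fold in the control, at 0.59 against 0.20, and at 0.44 it no longer passed without feeder-like and 2C-like cells. Of the formative and germ layer list, 1 gene in the control and 5 in the CX-5461 table reached the minimum and 0 passed 1.5-fold. Lefty1, an inhibitor of Nodal, had 60.7 and 62.0 CPM in the CX-5461 sets and 1.64 and 1.38 CPM in the control sets, and Dnmt3b had ratios of 0.09 and 0.39. Lefty2, its close relative, had 0.17 and 0.48.

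Glycolysis genes had medians of 0.21 and 0.09 (0.34 and 0.11 without feeder-like and 2C-like cells), with Gapdh at 0.23 and 0.04, Eno1 at 0.35 and 0.05 and Aldoa at 0.19 and 0.13. In the stress list 2 of 7 control genes passed 1.5-fold, Asns (0.65 and 0.25) and the ER chaperone gene Hspa5 (0.74 and 0.45), with 0 of 12 in the CX-5461 table. Hspa5 alone passed without feeder-like and 2C-like cells, at 0.86, and Asns stood at 0.57. Hspa8 had 0.36 and 0.11. The mitochondrially encoded mt-Co3, mt-Atp6 and mt-Co1 had -0.09, -0.20 and -0.13 in the control and -0.02, -0.02 and -0.01 in the CX-5461 table.

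All genes outside the score, lists included, were ranked in each direction by whichever of their 2 ratios was the weaker in that direction, so that a gene had to differ in both tables. Highest came Slc16a1, a lactate transporter, at 0.79 in the control and 1.05 in the CX-5461 table. Next came Pcna-ps2, at 1.11 and 0.69, but it is a pseudogene copy of Pcna, whose reads it can share, and so is not independent of the score. Zw10, a kinetochore gene, had 0.75 and 0.60, Ppat, of purine synthesis, 0.94 and 0.56, and Slc2a1, the glucose transporter GLUT1, 0.74 and 0.53. The others among the first 12 were Mcm4, Usp37, Slc30a2, Suz12, Cdc45, Atad2 and Ncapg2.

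The 12 lowest were led by smooth muscle and fibroblast genes. Acta2 stood at 3.38 CPM in replication-high and 310 CPM in replication-low control cells, with 0.82 and 55.9 CPM in the CX-5461 table. Tagln and Ccl2 had control ratios of -6.73 and -6.06, and Gm8300, on the 2C list, -5.91 in the control and -3.00 in the CX-5461 table. Ftl1, Gm5662, Xist, Ccnd2, H19, Gm38947, Gm15590 and Gm48271 made up the rest. With feeder-like and 2C-like cells left out, Acta2 had ratios of -0.18 and 0.66. It no longer reached the minimum of UMIs in either table there, so these values are not read. In that setting, of these 12 genes Ftl1, at -1.39 in the control, and Gm5662, at -1.97, kept a control ratio beyond -1.

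Of the largest differences between the tables, those on the positive side were of Sbsn, S100a6, Fbln2, Bgn, Gm5662 and Gsn, whose control ratios lay between -4.82 and -6.86. These ratios include feeder-like cells, 62 among control replication-low and 0 among control replication-high cells, and 32 and 15 in the CX-5461 table. How much of the differences came from those cells was not tested. Sbsn was seen in 714 of 1007 CX-5461 replication-high cells against 4 of 628 in the control. On the negative side stood Pole2, Sart3 (0.27 and -0.87), Gm20625 (0.55 and -0.55), Gm48271, Tmx2 (0.75 and -0.31) and Wdr61 (0.62 and -0.43). Sart3, a splicing factor, stood at 31.3 CPM in replication-high and 57.3 CPM in replication-low CX-5461 cells, against 22.2 and 18.4 CPM in the control.

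Some genes that were low in replication-high cells also without feeder-like and 2C-like cells were chosen after their values were seen. In the CX-5461 table Rgs14, a regulator of G protein signalling, stood at 5.77 CPM in replication-high and 35.4 CPM in replication-low cells before that exclusion. Its ratio was -2.62 (-2.97 to -2.28). Itgb2, a leukocyte integrin, had -2.11. Krt15, a basal keratin, was seen in 111 of 1007 replication-high and 270 of 1007 replication-low CX-5461 cells, with 11.5 and 44.5 CPM, and in 0 of the 628 cells of either control set, where a count of 0 allows up to 0.478% of cells with a UMI. In the control table Pf4, a chemokine, and Saa3, an acute phase gene, had ratios of -6.41 and -6.13, and -6.38 and -5.02 without feeder-like and 2C-like cells. They were seen in 13 and 19 replication-low and 3 and 11 replication-high cells.

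The replication-high cells of the tables were last compared with each other. Of 7242 genes, 2194 (30.3%) were at least 1.5-fold higher in CX-5461 replication-high cells and 591 (8.16%) at least 1.5-fold lower, and the median log2 ratio over all genes was 0.27 (0.36 by the TMM factor), so the lists are read against that shift. The replication lists lay near or under it, with medians of 0.20 for licensing and firing, 0.18 for polymerases, 0.14 for nucleotide supply and 0.01 for chromatin assembly. Ung (-0.91), Uhrf1 (-0.99), Hells (-0.85) and Cdca7 (-1.04), the last of these named after its value was seen, were lower by over 1.5-fold, and Hat1 had 0.40. Replication-dependent histones had a median of -1.07, with 7 of 11 genes at least 1.5-fold lower and 0 of 11 above the median of all genes. Hist1h2ac was lowest among the 4 H2A genes, at -3.95 (-4.15 to -3.75), followed by Hist1h2ap at -3.23 (-3.34 to -3.13). Hist1h2ab at -2.09 (-2.14 to -2.03) and Hist1h2ae at -2.00 (-2.08 to -1.91) did not differ beyond their intervals.

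The p53 list lay far above the shift in CX-5461 replication-high cells, with a median of 1.65 and 20 of 23 genes at least 1.5-fold higher. Cdkn1a differed by 2.36 (2.26 to 2.46), Btg2, an antiproliferative gene, by 3.43 and Perp, a membrane effector, by 4.93 (4.41 to 5.51). The nucleolus list lay under it, with a median of -0.27 and 1 of 30 genes above the median of all genes, and Npm1 differed by -0.59 and Ncl by -0.73. The G2/M list had a median of 0.31, with Cenpf at 1.04 and Ube2c at 0.68. Among pluripotency genes Pou5f1 differed by -0.31, Zfp42 by -0.74 and Lin28a by -3.53.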

How the data were processed

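The deposited values are raw counts of UMIs for each gene in each barcode, which the authors gave as 1 table per condition, from 10x Genomics 3' V2 libraries processed with a published droplet pipeline. Per the submitters' processing notes the genome was mm10 and Seurat 2.3.4 was used. The study's own cell filter, 500 UMIs and a mitochondrial share of 0.2, was an alternative here. Symbols came from GENCODE M21 (54079 of 54146 identifiers matched without version), and counts of identifiers sharing a symbol were summed. Samples of a condition could not be separated. Replication-high and replication-low cells held 9158745 and 11630158 UMIs in the control table and 14556080 and 15141750 in the CX-5461 table.

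Levels are UMIs pooled over cells as CPM, and log2 ratios carry exact conditional binomial intervals. Intervals of the difference between tables use the normal approximation to the log counts. A gene was read at 200 UMIs over both sets, and a fold was called at 1.5. Where a set had 0 UMIs, a floor of 3 counts was used. Named genes are those of the score, the 3 with most UMIs per list with those past 1.5-fold where these were few, the 12 highest and 12 lowest by the weaker of their 2 ratios in that direction and the 6 largest differences either way. Members and lists were chosen with earlier results of these data known. Doublets were not called, and an alternative left out the 5% deepest cells. Other alternatives changed the choice of cells, the depth, the scaling and the minimum. Ung, Ticrr, Top2a, Btg2, Perp, Lin28a and Cdca7 were named after their values were seen. Computation used Python 3.11.15, numpy 2.4.6 and scipy 1.17.1, and was checked on simulated counts. Some genes that the rule would name are not reported here.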

Additional observations from a re-analysis of the deposited data

How the results depend on the processing

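No paired analysis was possible because the 4 labelled samples of a condition stand in 1 table without a sample of origin, and for the same reason no sample could be left out. Barcodes shared between tables could not be removed, since barcode names are serial, and a TMM factor between the tables was not run for the share. The control count of genes at least 1.5-fold higher, 232, became 37 with cells thinned to 5000 UMIs, 105 with choice and measurement on separate UMIs, 79 with cells chosen by the 4 Mcm genes, 146 by the 5 other genes, 637 between the highest and lowest 10% of cells, 140 with the TMM factor, 481 at a minimum of 50 UMIs, 4255 with no minimum, 141 without feeder-like cells, 138 also without 2C-like cells, and 45 when the last was combined with separate UMIs. The control count lower, 237, became 143 among cells with Pou5f1, 63 thinned, 115 on separate UMIs, 933 at the minimum of 50, 4812 with none, 42 without feeder-like cells, 39 also without 2C-like cells and 14 with separate UMIs as well. The CX-5461 count higher, 91, became 137 with the study's cell filter, 29 thinned, 26 on separate UMIs, 23 by the 5 other genes, 241 between the outer 10% of cells, 358 at the minimum of 50, 4090 with none and 25 without both kinds of cells on separate UMIs. The CX-5461 count lower, 269, became 110 thinned, 86 on separate UMIs, 755 at the minimum of 50, 4501 with none and 85 without both kinds of cells on separate UMIs. Thinning and separate UMIs leave fewer UMIs, so fewer genes reach the minimum. The control share of the 9 genes, 0.0706%, became 0.0715% among cells with Pou5f1, 0.0724% without the 5% deepest cells, 0.0735% as a mean over cells, 0.0724% without feeder-like cells and 0.0725% also without 2C-like cells. The CX-5461 share, 0.0704%, became 0.0716% with the study's filter and 0.0710% without the deepest cells. The summed fibroblast list of the control table turned from lower to a log2 ratio of 0.18 without feeder-like cells and 0.18 also without 2C-like cells. It was 0.088 when that exclusion was combined with separate UMIs. The 2C list of the control table turned to 0.0063 without both kinds of cells. Those exclusions remove such cells by construction. When thinned, which removes no cells, the control 2C list turned to 0.18. At full depth that list held 11 UMIs in replication-high and 450 in replication-low control cells. Apart from the exclusions, the cause of each change was not tested. Another 51 values of the counts and the share moved by less than the limits set for them. Depth limits the ranking of single cells, which had a median of 11 control and 10 CX-5461 UMIs of the 9 genes.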
